A study of Mus musculus with 21 samples.

Results

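The genes that break down amino acids, choline and methionine were examined in the kidneys of mice with adenine-induced chronic kidney disease (CKD). The group held 41 genes, listed by name in 8 pathways, and all 41 were found among the 20634 genes present in both count tables of the study. Whole kidney RNA was sequenced from 17 female apoE KO mice on the C57BL/6J background, all 18 weeks old and all lacking apolipoprotein E, the ligand that clears remnant lipoproteins. From 4 weeks of age they had been fed for 14 weeks with standard chow (Con, n = 5), chow with adenine (Ade, n = 6), or chow with adenine and iodomethylcholine (Ade + IMC, n = 6). Iodomethylcholine (IMC) blocks the bacterial enzyme that makes trimethylamine, the precursor of TMAO, from choline. The 4 Con + IMC mice of the labels were not analysed here, so that the effect of IMC without adenine was not addressed. Each mouse gave 1 library, with 7716126 to 11680809 reads in Con, 5444833 to 7673215 in Ade and 5728589 to 8305968 in Ade + IMC. All 10 proximal tubule markers were read in every mouse, and reads of Apoe, the gene disrupted in all groups, ranged from 47 to 110 per mouse in Con, from 89 to 214 in Ade and from 86 to 171 in Ade + IMC. Levels are given in CPM, the count of a gene relative to the size of its library, with library sizes scaled by TMM over the 17 mice, as mean ± SD unless stated otherwise.

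The kidney takes up nearly all filtered amino acids in the proximal tubule, and the same cells hold much of its catabolic machinery. Choline is oxidised there to betaine, which donates a methyl group to homocysteine to make methionine and is then stripped of its remaining methyl groups down to glycine. Homocysteine that is not remethylated passes into cysteine by transsulfuration. The kidney also makes arginine from citrulline, begins the synthesis of creatine, deacylates conjugated amino acids and forms dopamine from L-DOPA.

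Of the choline genes, Bhmt, Bhmt2 and Dmgdh lie next to each other on chromosome 13. Bhmt occupies 93616675 to 93637961 and Bhmt2 occupies 93655720 to 93674302, both on the minus strand, and Dmgdh occupies 93674433 to 93752833 on the plus strand (GRCm38). Bhmt2 and Dmgdh are thus transcribed away from each other, and the 130 bases between their first bases are given because both genes fell in the Ade group. The bases upstream of Hpd (chromosome 5, 123171807 to 123182727, minus strand) are given with them because Hpd had the largest fall outside the choline genes. Capitals mark a GC box.
Bhmt2 to Dmgdh, chr13:93674303-93674432, plus strand: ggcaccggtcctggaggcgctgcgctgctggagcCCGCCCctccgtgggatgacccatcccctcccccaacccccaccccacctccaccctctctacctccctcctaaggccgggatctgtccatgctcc
Hpd, chr5:123182728-123182973, minus strand: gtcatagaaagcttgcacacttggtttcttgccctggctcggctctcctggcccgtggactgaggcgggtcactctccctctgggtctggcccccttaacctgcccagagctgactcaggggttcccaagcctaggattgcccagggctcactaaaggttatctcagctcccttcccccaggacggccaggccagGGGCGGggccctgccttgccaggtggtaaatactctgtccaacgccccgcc
The sequences are those of RefSeq's promoter windows (GRCm38.p6, 250 bases before to 50 after the start of each gene), in which 36 of the 41 genes were found. Of the letters searched on both strands, the GC box (GGGCGG) occurred once in each stretch. A stretch of 130 bases before the start held it in 27.7% of all genes, and one of 246 bases in 32.8%. The TATA box (TATAAA), the CCAAT box (CCAAT), the HNF1 half-site (GTTAAT) and an HNF4 site (CAAAGTCCA) were in neither. The GC content was 70.8% between Bhmt2 and Dmgdh and 63.0% before Hpd. Over the 300-base windows, the GC box was in 20 of 36 genes (55.6%, against 35.9% of all genes) and the CCAAT box in 16 (44.4%, against 37.9%). The TATA box was in 4 genes, Acy3, Agxt2, Ddc and Hgd (11.1%, against 14.2%). The HNF1 half-site was in Haao (2.78%, against 7.2%) and the HNF4 site in Agxt2 (2.78%, against 0.48%). These shares are descriptions of the windows and were not tested.

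In Con kidneys most of the 41 genes were among the more abundant transcripts. Per kilobase of exon (RPKM), the highest levels were those of Acy3 at 352, Gatm at 314 and Ass1 at 275, and the lowest were those of Bhmt at 2.84 and Agmat at 1.40. Acy3 and Gatm stood above 99.6% and 99.5% of the detected genes, and Bhmt above 50.5%.

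The first comparison asked how adenine feeding changed these genes (Ade against Con, edgeR's quasi-likelihood test on raw counts, called at an adjusted p below 0.1). Of the 40 genes that passed the filter on low counts, 39 were lower in Ade and 0 were higher. Of all 14612 genes tested, 32.2% were called lower and 35.1% higher. The median log2 fold change of the 40 genes was -1.30, against 0.02 over all genes. The 39 falls ranged from -0.71 for Ddo to -4.39 for Bhmt on the log2 scale. Agmat did not pass the filter on low counts, with 8 to 22 reads per mouse in Con and 2 to 9 in Ade. In CPM, every Ade mouse was below every Con mouse for 39 of the 41 genes and for 38 of the 40 tested, while 20.6% of all tested genes had this pattern. For Bckdhb the ranges in Con and Ade overlapped.

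**Figure D1:**
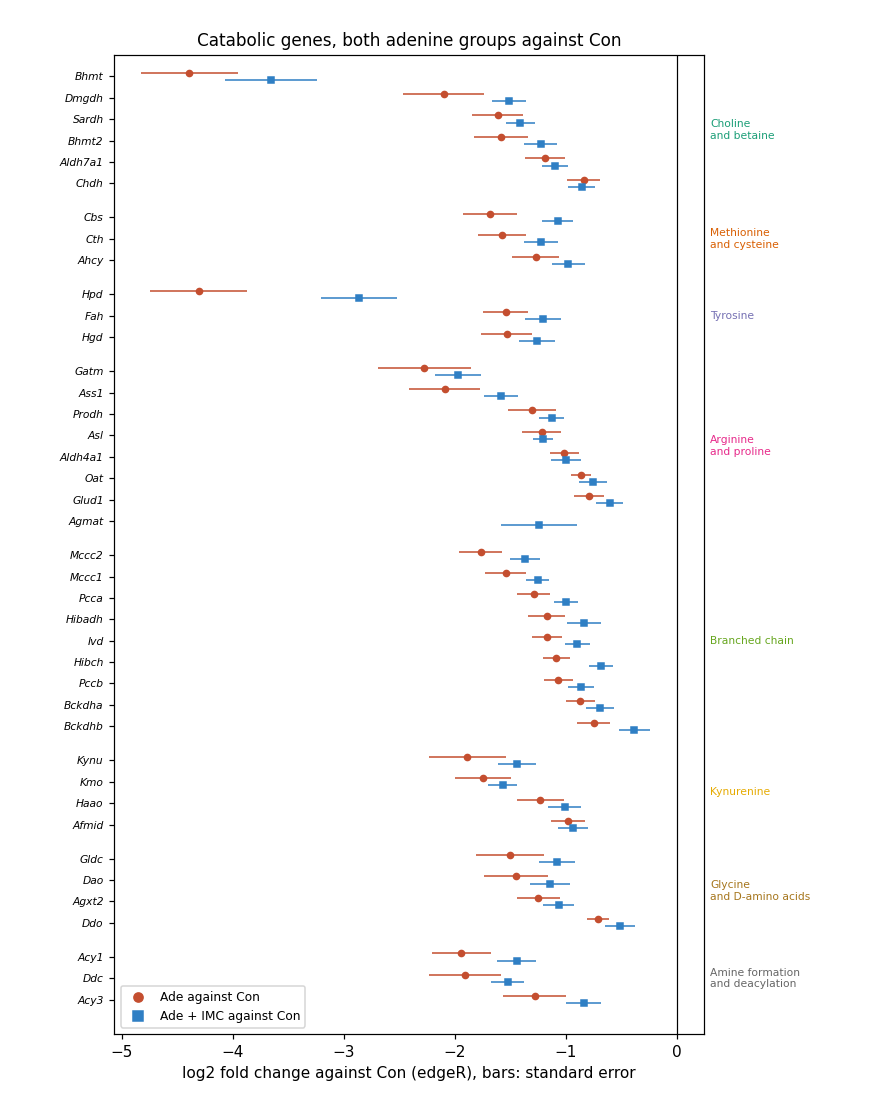
Log2 fold change (x axis) of genes of the 8 pathways in Ade against Con (circles) and in Ade + IMC against Con (squares), with standard errors. The genes plotted, 40 of the 41, lie to the left of 0 in both comparisons, and Bhmt and Hpd lie farthest from it. Agmat was tested in the second comparison only.

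All 10 proximal tubule markers fell in the same comparison, from -1.13 to -2.87 on the log2 scale, and their summed level was 17071 to 22950 CPM in Con and 3024 to 10175 CPM in Ade. All 6 immune markers and all 5 fibroblast markers rose, with sums of 60.2 to 98.1 and 295 to 355 CPM in Con and of 833 to 1481 and 1893 to 2486 CPM in Ade. All 5 collecting duct markers and 4 of 5 markers of the loop of Henle and distal tubule fell, 2 of 4 endothelial markers fell, and 0 of 4 podocyte markers were called. In whole kidney RNA, fewer cells of a type and less RNA per cell cannot be told apart. The part of these shifts in the falls of the catabolic genes was not tested. Of 7 liver markers 6 had values, with sums of 26.8 to 37.1 CPM in Con, 27.4 to 63.2 CPM in Ade and 16.8 to 58.2 CPM in Ade + IMC. Ahsg, Serpina3k and Cps1 were at or near 0 in all groups, with no mouse above 0.717 CPM. Of the other 3, Alb fell, from 25.3 CPM in Con to 9.50 CPM in Ade (log2 fold change -1.39), Fgb rose, from 4.42 to 35.2 CPM (3.03), and Apoa2 was not called (-0.39). The 3 fat markers with values summed to 0.404 to 6.06 CPM in Con, 0.250 to 54.4 CPM in Ade and 0.138 to 250.3 CPM in Ade + IMC, and the 3 adrenal markers to at most 10.3 CPM in any mouse.

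The choline and betaine genes fell in Ade, all 6 of them, with a median of -1.60 on the log2 scale. Bhmt, which moves a methyl group from betaine to homocysteine, had the largest fall of all. It stood at 8.88, 12.7, 17.5, 18.0 and 24.7 CPM in the 5 Con mice. In the Ade mice it stood at 0, 0.381, 0.749, 0.774, 1.17 and 1.62 CPM. The groups were far apart, and Bhmt was 21.0-fold lower in Ade (log2 fold change -4.39 ± 0.43, adjusted p = 2.1e-06 by edgeR), although the Ade values rest on 0 to 12 reads per mouse. Bhmt2, whose enzyme takes its methyl group from S-methylmethionine, was at 56.0 RPKM in Con, against 2.84 RPKM for Bhmt, and fell 3.0-fold in Ade, from 138 ± 21.3 to 45.4 ± 19.7 CPM. Dmgdh removes a methyl group from dimethylglycine, the product of betaine. It was at 181 to 226 CPM in Con and at 16.5 to 93.9 CPM in Ade, a 4.29-fold fall (log2 fold change -2.10 ± 0.36, adjusted p = 0.00023). Sardh, which takes the last methyl group from sarcosine to leave glycine, fell 3.06-fold, from 500 ± 31.9 to 161 ± 67.7 CPM. The steps from choline to betaine changed less. Chdh, choline dehydrogenase, fell 1.79-fold (log2 fold change -0.84 ± 0.15) and Aldh7a1, which oxidises betaine aldehyde and also acts in lysine breakdown, fell 2.28-fold (-1.19 ± 0.18).

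All 3 methionine and cysteine genes fell. Cbs, which joins homocysteine to serine in the entry step of transsulfuration, was at 71.5, 76.8, 80.1, 80.7 and 88.1 CPM in the Con mice. It was at 14.2, 15.5, 16.2, 23.1, 36.1 and 40.9 CPM in the Ade mice, all below Con, and fell 3.22-fold (log2 fold change -1.69 ± 0.24, adjusted p = 5.3e-05). Cth, which releases cysteine from cystathionine, fell 2.99-fold, from 248 ± 26.3 to 81.9 ± 32.2 CPM. Ahcy, which forms homocysteine from S-adenosylhomocysteine, fell 2.42-fold, from 34.5 ± 6.06 to 14.1 ± 5.31 CPM.

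The 3 tyrosine genes act in sequence from 4-hydroxyphenylpyruvate to fumarate and acetoacetate, and all 3 fell. Hpd, the dioxygenase of 4-hydroxyphenylpyruvate, was at 67.7, 78.5, 102, 119 and 140 CPM in the Con mice. In the Ade mice it was at 0.909, 1.02, 2.97, 7.02, 9.47 and 9.48 CPM, so that the highest Ade mouse was well below the lowest Con mouse. Hpd was 19.8-fold lower (log2 fold change -4.31 ± 0.44, adjusted p = 2.6e-06). The enzymes after it changed less: Hgd fell 2.89-fold, from 465.5 ± 77.2 to 159 ± 61.9 CPM, and Fah fell 2.92-fold, from 404 ± 56.2 to 137 ± 47.3 CPM.

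Of the 9 arginine and proline genes, 8 were tested and 7 fell. Gatm, which makes guanidinoacetate, the precursor of creatine, from arginine and glycine, was at 813, 828.97, 887, 919 and 1260 CPM in the Con mice. It was at 51.0, 87.9, 123, 215, 253 and 422 CPM in the Ade mice, a 4.84-fold fall (log2 fold change -2.27 ± 0.42, adjusted p = 0.00036) with no overlap of the groups. The genes of arginine synthesis both fell: Ass1, argininosuccinate synthase, fell 4.26-fold, from 663 ± 66.7 to 153 ± 87.8 CPM, and Asl, argininosuccinate lyase, fell 2.33-fold, from 180 ± 15.8 to 76.2 ± 22.4 CPM. Prodh and Aldh4a1, which oxidise proline to glutamate, fell 2.48-fold and 2.02-fold. Exons of Aldh4a1 share 32.5% of their length with Gm21969, so that its reads cannot be fully assigned. Oat, ornithine aminotransferase, fell from 491 ± 33.2 to 265 ± 26.5 CPM (1.83-fold) and Glud1, glutamate dehydrogenase, from 800 ± 59.4 to 455 ± 90.4 CPM (1.73-fold). Oat was at 241 to 310 CPM in Ade, where its highest mouse exceeded its lowest 1.28-fold. Agmat, agmatinase, was at 1.97 ± 0.65 CPM in Con and 0.830 ± 0.311 CPM in Ade.

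All 9 genes of branched chain amino acid breakdown fell, with a median of -1.17 on the log2 scale. Mccc2, a subunit of the methylcrotonyl-CoA carboxylase of leucine breakdown, was at 175, 179, 193, 198 and 214 CPM in the Con mice and at 36.5, 37.6, 46.9, 53.4, 75.9 and 82.8 CPM in the Ade mice. It fell 3.40-fold (log2 fold change -1.77 ± 0.19, adjusted p = 5.3e-06), and Mccc1, the other subunit, fell 2.92-fold. Ivd, isovaleryl-CoA dehydrogenase, fell 2.25-fold. Of the valine enzymes, Hibch fell 2.13-fold and Hibadh 2.26-fold. Pcca and Pccb, the subunits of propionyl-CoA carboxylase, fell 2.45-fold and 2.10-fold. The smallest falls were at the branched chain dehydrogenase that commits all 3 amino acids to oxidation: Bckdha fell 1.83-fold and Bckdhb 1.69-fold. Bckdhb was at 46.8 to 78.0 CPM in Con and 31.0 to 47.7 CPM in Ade. Exons of Bckdha share 61.7% of their length with B3gnt8, and the use of strand in counting is not stated, so that its reads cannot be fully assigned.

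The 4 kynurenine genes, which degrade tryptophan products towards NAD, all fell. Kynu, kynureninase, was at 44.7, 46.9, 51.4, 65.6 and 66.6 CPM in the Con mice. It was at 4.89, 5.34, 15.1, 15.2, 19.4 and 28.8 CPM in the Ade mice, a 3.70-fold fall (log2 fold change -1.89 ± 0.35, adjusted p = 0.00036). Mice 207 and 208 held both of the lowest values. Kmo, which hydroxylates kynurenine, fell 3.36-fold, Haao, which opens the ring of 3-hydroxyanthranilate, fell 2.35-fold, and Afmid, the formamidase that yields kynurenine, fell 1.98-fold. Exons of Afmid overlap those of Tk1 and another gene over 46.6% of their length.

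Gldc, the decarboxylase of the glycine cleavage system, was at 271, 282, 330, 338 and 411 CPM in the Con mice and at 48.6, 65.2, 83.4, 121, 135 and 228 CPM in the Ade mice. It fell 2.84-fold (log2 fold change -1.50 ± 0.31, adjusted p = 0.00088). Dao and Ddo, the peroxisomal oxidases of D-amino acids and D-aspartate, fell 2.73-fold and 1.64-fold, and Ddo had the smallest fall of the 39. Agxt2, a mitochondrial aminotransferase that also removes asymmetric dimethylarginine, fell 2.38-fold, from 88.8 ± 13.4 to 36.8 ± 11.7 CPM.

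Acy1, which deacylates N-acetylated amino acids, was at 133, 152, 168, 184 and 199 CPM in the Con mice and at 22.0, 23.3, 40.0, 41.1, 55.7 and 75.8 CPM in the Ade mice. It fell 3.84-fold (log2 fold change -1.94 ± 0.27, adjusted p = 3.5e-05). Ddc, which forms dopamine from L-DOPA, fell 3.75-fold, from 177 ± 24.4 to 46.4 ± 30.0 CPM. Acy3, which deacylates mercapturic acids, fell 2.43-fold, from 720 ± 107 to 292 ± 142 CPM.

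**Figure D2:**
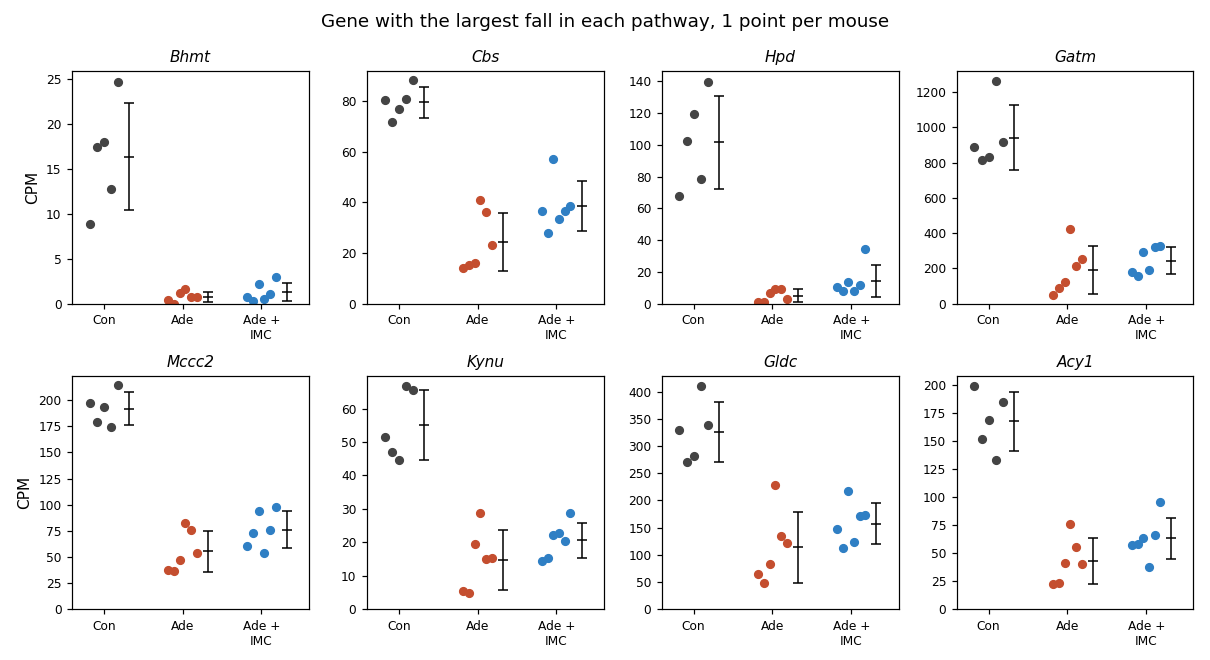
CPM (y axis, from 0) of the gene with the largest fall of each pathway, with 1 point per mouse and the mean ± SD beside the points. All Ade and Ade + IMC mice lie below the lowest Con mouse in all 8 panels, and the Ade and Ade + IMC points overlap.

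Further genes of the same pathways were counted from a separate list of 97, of which 4 (Tat, Otc, Agxt and Hao1) were not analysed here. Of the 89 tested, 66 were lower in Ade (74.2%, against 32.2% of all genes) and 13 were higher, with a median log2 fold change of -0.79. Kynurenine breakdown (8 of 8 tested) and branched chain breakdown (16 of 17) held mostly falls. The largest fall was that of Aadat, an aminotransferase of kynurenine and 2-aminoadipate, from 2159 ± 253 to 245 ± 231 CPM (8.69-fold, adjusted p = 0.00031). It was followed within the other pathways by Hao2, a peroxisomal hydroxyacid oxidase (6.85-fold), Gnmt, a methyltransferase that turns glycine into sarcosine (5.24-fold), and Aspa, which deacetylates N-acetylaspartate (5.08-fold). Aldh6a1 of valine breakdown fell 4.40-fold, Etnppl, a phosphoethanolamine lyase, 4.33-fold and Prodh2 of hydroxyproline breakdown 2.57-fold.

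The rises were fewer. Of the 18 arginine and proline genes tested, 9 fell and 7 rose. Aldh18a1, which makes the precursor of proline from glutamate and was named after its values were seen, rose 3.87-fold, from 6.83 ± 0.51 to 26.0 ± 2.98 CPM. Pycr1, which completes proline synthesis and was chosen in the same way, rose by 1.14 on the log2 scale. Bcat1, the cytosolic branched chain aminotransferase, rose 2.83-fold, from 17.3 ± 8.07 to 48.0 ± 10.1 CPM, and Phgdh, the entry enzyme of serine synthesis, rose 1.89-fold. Pemt, which methylates phosphatidylethanolamine to phosphatidylcholine, rose 1.77-fold at 1.89 CPM in Ade. The choline genes outside the main group had no common direction, with 3 lower, 2 higher and 3 not called of 8.

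**Figure D3:**
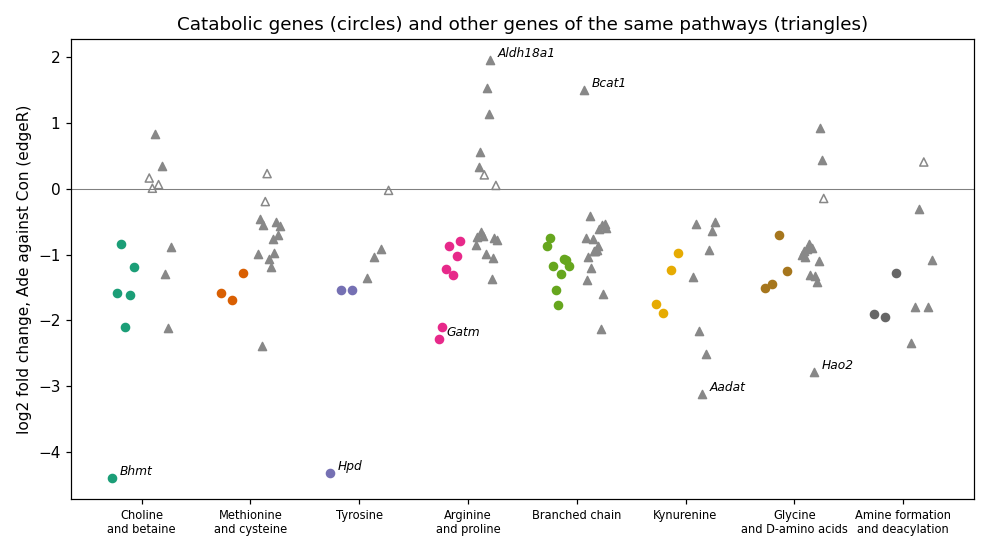
Log2 fold change in Ade against Con (y axis) by pathway (x axis) for the catabolic genes (coloured circles) and other genes of the same pathways (grey triangles). Filled symbols were called at an adjusted p below 0.1 and open ones were not. The circles, 39 of the 40 catabolic genes tested, lie below 0, and of the triangles plotted Aldh18a1 is the highest, at 1.95.

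The kidneys within the Ade group differed from each other more than those within Con. Over the 40 genes read in every Ade mouse, the highest mouse exceeded the lowest by a median of 2.59-fold in Ade, 1.83-fold in Ade + IMC and 1.31-fold in Con. The range was wider in Ade than in Con for 39 of these 40 genes, and wider than in Ade + IMC for 34. The shares over all genes were not computed. Ade held 6 mice and Con 5, and most of these genes had fewer reads in Ade. The part of either in the wider ranges was not tested. The same mice stood at the ends for most genes. Mouse 407 was the highest of Ade for 36 of the 41 genes, and mice 208 and 207 were the lowest for 22 and 14. In Ade + IMC, mouse 412 was the highest for 24 and mouse 311 the lowest for 34. The median gene of mouse 407 lay 0.73 below the Con mean on the log2 scale, and that of mouse 208 lay 1.98 below it. The proximal tubule markers moved alongside, with a median of -0.96 in mouse 407 and of -2.72 in mouse 208.

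**Figure D4:**
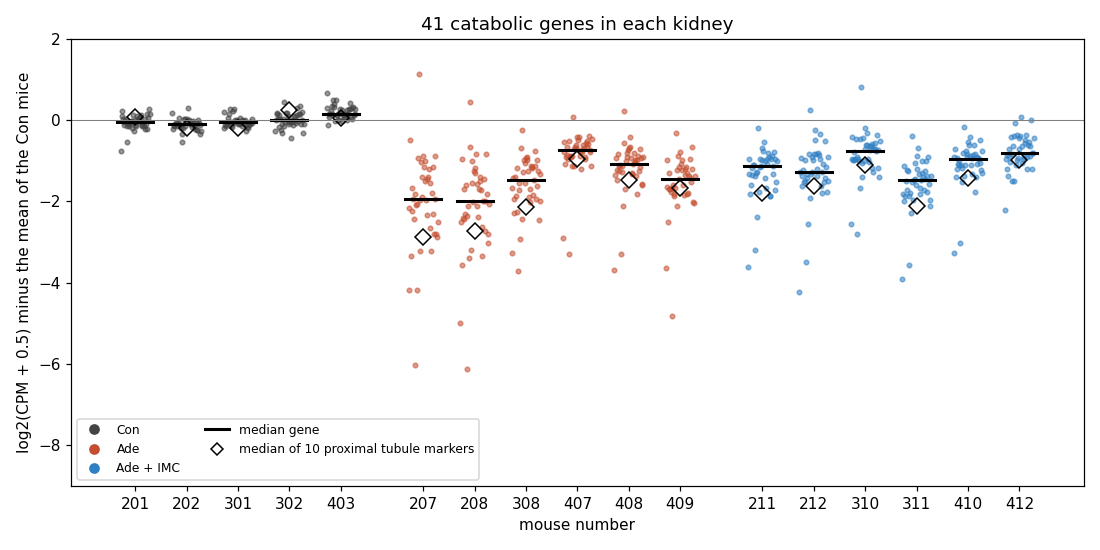
Log2(CPM + 0.5) of the 41 genes minus the mean of the Con mice (y axis) in each mouse (x axis), with a bar at the median gene and a diamond at the median of 10 proximal tubule markers. Con mice centre near 0, mice 207 and 208 are the lowest of Ade, and mouse 407 is the highest of Ade.

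The mouse numbers in the labels begin with 2, 3 or 4, and what this digit stands for is not stated. Mice 207 and 208 are both Ade mice with digit 2. Within each digit, the median difference of the 41 genes between Ade and Con was -1.83, -1.47 and -1.32 on the log2(CPM + 0.5) scale. Digit 3 held 1 Ade mouse and digit 4 held 1 Con mouse, so that the values for those digits rest on 1 mouse in 1 group. In all 3 digits, 40 of the 41 genes were lower in Ade, and the share of all genes with this pattern was not computed.

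The second comparison set the Ade + IMC mice against Con, with the same test on the raw counts of Con and the whole reads recovered from the normalized values of Ade + IMC. All 41 genes were tested, 40 were lower in Ade + IMC and 0 were higher. Of all 14578 genes, 32.3% were called lower and 30.9% higher. The median log2 fold change was -1.10, against -0.02 over all genes. Every Ade + IMC mouse was below every Con mouse for 37 genes, a pattern of 16.4% of all tested genes, and the groups overlapped for Agmat, Bckdhb and Ddo among others. This comparison uses the same Con mice as the first, so that the values are only set side by side. Bhmt was 12.6-fold lower than in Con (log2 fold change -3.66 ± 0.42, adjusted p = 1.2e-05), with 3 to 20 reads per mouse, and Hpd was 7.28-fold lower (-2.86 ± 0.34, adjusted p = 1.8e-05). Gatm was 3.93-fold lower, Ass1 3.0-fold, Kmo 2.97-fold, Ddc 2.88-fold and Dmgdh 2.85-fold. Agmat was 2.37-fold lower, on 3 to 9 reads per mouse in Ade + IMC. The smallest falls were those of Bckdhb (1.31-fold, adjusted p = 0.032) and Ddo (1.43-fold, adjusted p = 0.0051). The 10 proximal tubule markers were all lower than in Con here too, with a summed level of 4632 to 9378 CPM.

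The third comparison asked whether the genes differed between Ade + IMC and Ade, when inhibition of trimethylamine production was added to adenine. It was made by limma on log2(normalized count + 1) on the 39 genes whose normalized counts averaged 10 or more, which left out Bhmt and Agmat. None of the 39 was called (0 lower and 0 higher, smallest adjusted p = 0.711), and of all 14696 genes 0% were called lower and 0% higher. At an unadjusted p below 0.05, 10 of the 39 were higher in Ade + IMC and 0 lower, against 3.37% higher and 3.35% lower over all genes. On the recovered reads, edgeR called 0 of the listed genes and 0% of all genes. DESeq2 on the same reads called 0 of the listed genes, with 0.106% of all genes called lower and 0.139% higher. At an unadjusted p below 0.05, edgeR and DESeq2 held 4 and 6 of the listed genes, and the shares over all genes were not computed. The differences were above 0 for 38 of the 39 genes, against 51.6% of all genes, with a median of 0.38 against 0.01 over all genes. For all 41 genes, the CPM values of the Ade and Ade + IMC mice overlapped, and the share of all genes with such overlap was not computed.

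The genes with the smallest unadjusted p were Hibch, Hpd, Bckdhb, Cbs and Dmgdh. Hpd was at 6.84, 7.56, 22.2, 52.9, 70.0 and 70.5 normalized counts in the Ade mice. It was at 58.8, 61.1, 77.1, 84.8, 101 and 251 normalized counts in the Ade + IMC mice. The 2 lowest Ade mice were 208 and 207, and mouse 412 stood far above the rest of its group. The difference was 1.76 ± 0.59 (SE) on the log2 scale, with an unadjusted p of 0.010 and an adjusted p of 0.711 by limma. A two-sided exact permutation test over the 924 splits of the 12 mice gave p = 0.0216.

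Hibch, which releases free 3-hydroxyisobutyrate in valine breakdown, was at 145, 178, 181, 184, 198 and 267 normalized counts in Ade. In Ade + IMC it was at 204, 236, 262, 263, 273 and 325, so that 5 of 6 Ade mice were below the lowest Ade + IMC mouse. The difference was 0.45 ± 0.14 on the log2 scale (limma, adjusted p = 0.711, exact permutation p = 0.0173). Bckdhb was at 231, 236, 239, 267, 349 and 352 normalized counts in Ade and at 294, 323, 347, 376, 395 and 487 in Ade + IMC. Its difference was 0.41 ± 0.14 (limma, adjusted p = 0.711, exact permutation p = 0.0281). The values of 325 for Hibch and 395 for Bckdhb were those of mouse 212. That mouse also had the most reads of the fat marker Adipoq, 572 against at most 136 in any other mouse. The part of fat in these values was not tested.

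Cbs was at 106, 116, 122, 172, 266 and 304 normalized counts in Ade and at 207, 251, 267, 275, 283 and 423 in Ade + IMC. The difference was 0.74 ± 0.26 (limma, adjusted p = 0.711, exact permutation p = 0.0433), and mice 408 and 407 of Ade stood within the range of Ade + IMC. Dmgdh was at 124, 143, 262, 308, 530 and 699 normalized counts in Ade and at 374, 418, 477, 553, 633 and 743 in Ade + IMC. Its difference was 0.86 ± 0.37 (limma, adjusted p = 0.717, exact permutation p = 0.0801). These 5 genes were named for their small p, so that the permutation p-values are descriptions, and the smallest p that the 924 splits can give is 0.0022. The values for the other choline genes were smaller, at 0.47 ± 0.25 for Bhmt2, 0.32 ± 0.23 for Sardh, 0.16 ± 0.18 for Aldh7a1 and 0.04 ± 0.15 for Chdh. Bhmt itself was at 0 to 12 reads per mouse in Ade and 3 to 20 in Ade + IMC.

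**Figure D5:**
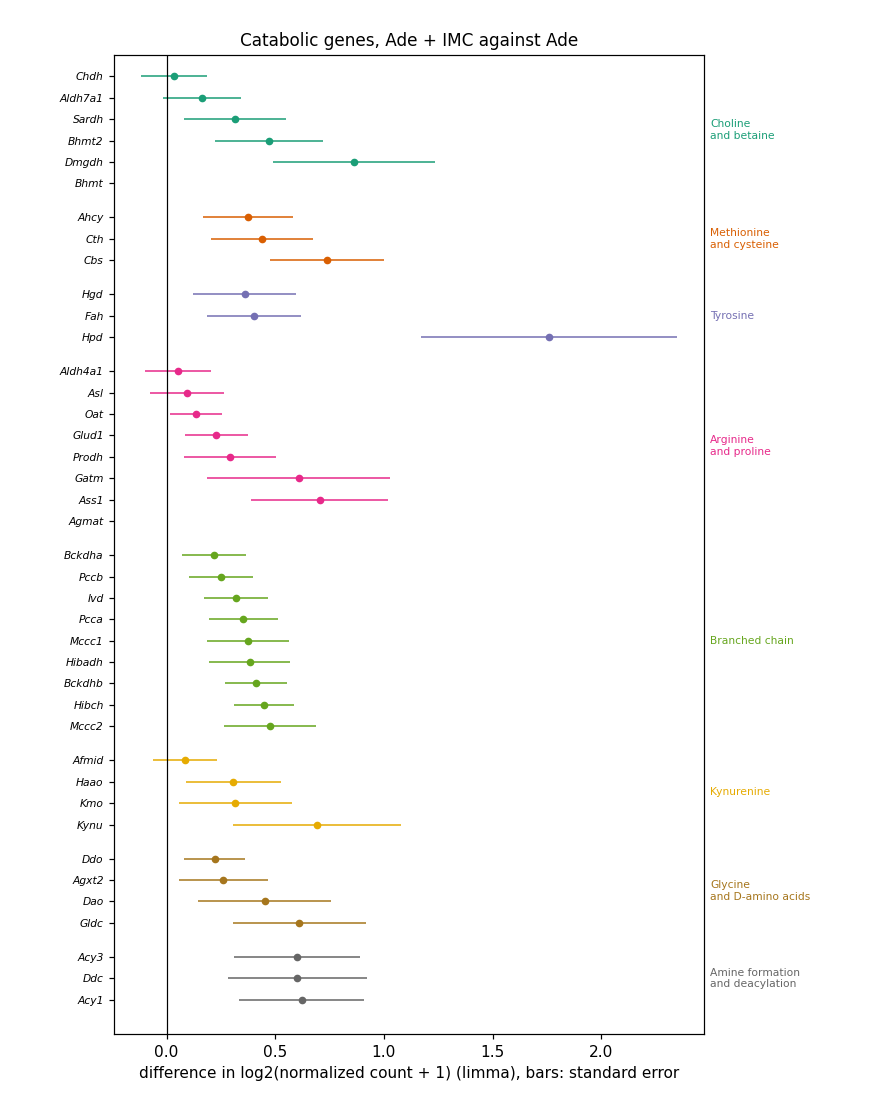
Difference in log2(normalized count + 1) between Ade + IMC and Ade (x axis) with its standard error, by pathway. The genes plotted, 38 of the 39 tested, lie to the right of 0, Hpd lies farthest at 1.76, and none was called; Bhmt and Agmat have no value.

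The size of these differences varied with the mice included. Within mice whose number begins with 2, the median difference of the 41 genes was 0.76 on the log2 scale. Within those beginning with 3, where Ade held 1 mouse, it was 0.32, and within those beginning with 4 it was 0.21. With the digit as a block in the limma fit, the count at an unadjusted p below 0.05 was 26 of 39, all higher (7.4% of all genes higher and 6.26% lower). None of the 39 was called there either, with a smallest adjusted p of 0.102 for Hpd, while 0.497% of all genes were called higher and 0.408% lower. Mice 207 and 208 were the only Ade mice with digit 2, where Ade + IMC also had 2 mice, which were kept. Leaving out mice 207 and 208, a choice made after their values were seen, took the median from 0.38 to 0.14 and left 1 gene at an unadjusted p below 0.05. Leaving out each mouse in turn, that count ranged from 4 to 30, with 30 without mouse 407, 19 without mouse 311 and 4 without 207, 208, 409, 310, 410 or 412. The proximal tubule markers were above 0 for 8 of 10 in this comparison, against 51.6% of all genes, with a median of 0.43, and 0 of 10 were called.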

How the data were processed

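Groups were taken from the sample labels and diets from the labels and methods. For the Con and Ade mice the authors deposited raw counts per gene, and a signal for those of Ade and Ade + IMC, the count divided by a size factor of DESeq2. The methods name STAR 2.3.1 and mm10, whereas the submitters' processing notes list Trimmomatic 0.39, FastQC 0.11.8, Bowtie2 2.2.5, HTSeq 0.9.1 and DESeq2; the annotation and the use of strand are not given in the sources used here. The deposited fold changes and p-values of the authors' own comparison were not used, and 0 sample columns were left out. The recovered reads were whole for 100% of values (tolerance 1e-06), and 0 values of the Ade mice differed from the raw counts. No pair of mice of a group agreed within counting noise (lowest chi-square over degrees of freedom, 3.97).

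Ade and Ade + IMC were each tested against Con by edgeR 4.0.16 (TMM, its filter on low counts), with the SE taken as the absolute log2 fold change over the square root of F, and Ade + IMC against Ade by limma 3.58.1 with a trend and a pseudocount of 1. p-values were adjusted over all genes tested by Benjamini-Hochberg and called below 0.1, the study's threshold. Each sample is a separate mouse. Lengths and positions were from GENCODE M21 (GRCm38). Scripts were tested on simulated data. The members and lists were chosen with earlier results of these data known. Named with values per mouse were the gene with the largest called fall and rise of each pathway in Ade against Con, and the 5 genes with the smallest p in Ade + IMC against Ade; of the other pathway genes, those with the largest called fall and rise. Some genes of the lists are counted but not reported here by name. Alternatives were DESeq2 1.42.0, other scalings, filters, pseudocounts and thresholds, all mice in 1 fit, leaving out each mouse, and a block for the leading digit of each mouse's number. Mice sharing a digit deviated together over genes in Ade and Ade + IMC (correlations of 0.36, 0.375 and 0.202), which is a hint from the data.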

Additional observations from a re-analysis of the deposited data

Results flagged for a closer look

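Each group of 5 or 6 mice was searched, in CPM, for a highest or lowest mouse whose gap to the next exceeded Dixon's limit, over 40 of the 41 genes and 10 further pathway genes named by rule. Of 150 such groups 10 held one, where chance gives about 1 in 20, or 8. Mouse 403 was the highest of Con for 5 of them, with Hgd at 603.1 (the other Con mice 420 to 439), Aldh4a1 at 357.7 (273 to 297), Pccb at 459.1 (398 to 409), Hibadh at 639.7 (498 to 533) and Haao at 199.4 (134 to 146). Mouse 302 of Con was high for Gatm at 1260 (813 to 919). In Ade + IMC, mouse 412 was high for Hpd at 34.3 (7.82 to 13.7) and Ahcy at 25.36 (14.1 to 18.1). Mouse 310 was high for Cbs at 57.23 (27.98 to 38.7) and mouse 311 low for Aldh4a1 at 98.07 (150 to 180). In Ade, 0 groups held such a mouse.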

How the results depend on the processing

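The counts of called genes (39 lower in Ade, 40 lower in Ade + IMC, 0 between Ade + IMC and Ade) moved by at most 1 under the alternatives run, and 0 genes were called higher in any. The median log2 fold change ranged from -1.56 (digit as a block) to -1.15 (without mice 207 and 208) in Ade against Con, and from -1.19 to -1.02 in Ade + IMC against Con. Between Ade + IMC and Ade it ranged from 0.27 (without mouse 207) to 0.50 (without mouse 407) when each mouse was left out. With a block for the leading digit of each mouse's number, the counts of the 41 genes called did not change in any of the 3 comparisons, while over all genes the calls between Ade + IMC and Ade went from 0 to 60 lower and 73 higher, and the listed genes at an unadjusted p below 0.05 from 10 to 26 of 39. Replicate numbers followed accession order and were not used to pair mice. Depth limits Bhmt and Agmat, which stayed at 20 reads or fewer in every Ade and Ade + IMC mouse.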
